A study of Mus musculus with 5 samples.

Results

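The results concern 29 genes of cholesterol and fatty acid synthesis, taken by symbol from the 24970 genes listed in each count file. Enzymes of the sterol route made up 17 of them, enzymes of the fatty acid route 8, and the other 4 were the regulators Srebf1, Srebf2 and Insig1 and the sterol carrier Stard4. All 29 were found and all passed the filter on low counts. In bladder urothelium of Nicastrin knockout mice, 13 of the 29 rose and none fell relative to wild types, by edgeR's quasi-likelihood test, with p adjusted after Benjamini and Hochberg over 14779 genes at a threshold of 0.05. Stard4 alone had a negative fold change at an unadjusted p under 0.05, and DESeq2 also gave 0 falling members. Among 14 alternative fits, Stard4 was called as a fall in 3 and the sterol enzyme gene Sc5d in 2. The fits without KO 3 and with a term for replicate number, which called both, draw the group difference from the same libraries. Over all tested genes, 19.7% changed, 9.64% rising and 10.0% falling. The rises were of moderate size, at most 1.73-fold, in Mvd. Of the 13, 4 still passed without WT 1, 6 without WT 2 and 8 without KO 2. Both arms shared them: 9 of 17 sterol enzymes and 4 of 8 fatty acid enzymes rose, with median log2 fold changes of 0.39 and 0.31, against 0.0071 for all tested genes.

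Cells make both lipids from cytosolic acetyl-CoA. The sterol route condenses it to mevalonate, builds farnesyl diphosphate and squalene, closes the ring to lanosterol and trims lanosterol to cholesterol, while the fatty acid route carboxylates it to malonyl-CoA, builds palmitate and then elongates and desaturates the chain. The transcription factor SREBP-2, encoded by Srebf2, is known mainly for driving the sterol genes, and SREBP-1c, a product of Srebf1, mainly the fatty acid genes. When sterols are plentiful, INSIG proteins hold the SREBP escort protein SCAP in the endoplasmic reticulum, so that the factors are not cut and released. Bladder urothelium is known for the specialised apical membrane of its umbrella cells, which is rich in uroplakin proteins and in cholesterol.

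RNA came from urothelium dissected off the bladder muscle of mice of 10 weeks of age, in 5 libraries. Each library was taken as 1 mouse. The 3 knockouts (KO 1 to KO 3) had the genotype Krt5CreERT2;Ncstnflox/flox: an inducible Cre recombinase under the promoter of Krt5, a keratin gene of basal urothelial cells, with floxed alleles of Ncstn, which encodes the gamma-secretase subunit Nicastrin. The 2 wild types (WT 1 and WT 2) were of strain C57Bl/6 and no Cre is named for them. The sources used here do not give the strain background of the knockouts or the induction of Cre, and effects of strain, of Cre and its induction and of Ncstn loss cannot be told apart. Gamma-secretase releases the signalling part of Notch receptors, and the comparison concerns urothelium of mice designed to lose Nicastrin in Krt5-expressing cells.

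Gene counts per library ranged from 12608836 to 27188499. Ncstn stood at 114, 117 and 123 CPM (gene counts relative to the TMM-scaled library total) in KO 1 to KO 3, against 144 and 129.7 CPM in WT 1 and WT 2, and did not pass the test (adjusted p = 0.133, edgeR). Those reads cover the whole gene in all dissected cells, so they do not check the deletion. The precursor ribosomal RNA Rn45s took 0.608% to 1.53% of gene counts in the knockouts, against 3.23% and 7.84% in the wild types.

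Markers of some cell types also moved between the genotypes. Of 10 umbrella cell markers, 7 rose, and their summed level was 16221 to 17847 CPM in knockouts, against 10642 to 11795 CPM in wild types. Of 14 fibroblast markers, 1 rose and 12 fell, with sums of 9455 to 11235 CPM in knockouts, against 15783 to 17880 CPM in wild types. Of 10 endothelial markers, 5 fell, as did 1 of 9 smooth muscle markers, while 1 of 10 macrophage markers rose and 1 fell. Over all tested genes, 9.64% rose and 10.0% fell, so the smooth muscle and macrophage counts lay near the share of any gene. Of 10 basal urothelial markers, 3 rose and 2 fell, and they summed to 3817 to 6403 CPM in knockouts and 3972 to 4716 CPM in wild types. The part of these shifts in the rises of lipid genes was not tested, and in bulk tissue fewer cells of a type and less RNA per cell cannot be told apart. Adipocytes make much fatty acid, and their 13 listed markers differed widely in level. Of these, 7 (Adipoq, Plin1, Cidec, Cidea, Lep, Retn and Cfd) were at most 0.157 CPM in any library. Fabp4 averaged 464 CPM in knockouts and 452 CPM in wild types, and Car3 542 and 418 CPM. Of the 13, 5 were abundant enough to test and 0 passed in edgeR (1, Car3, had an unadjusted p under 0.05 and passed in DESeq2). The part of adipocytes in the rises of lipid genes was not tested. Adipocyte markers summed to 968 to 1237 CPM in knockouts and 852 to 1059 CPM in wild types, mostly Fabp4 and Car3.

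Promoter sequences of 5 members are shown because they range from the sterol enzyme with the highest fold change (Mvd) to the one with the lowest (Sc5d), with Hmgcs1 as the single member that held the sterol regulatory element searched for. Fasn and Elovl6 are the synthase of the fatty acid arm and its member with the highest fold change. The sequences are from RefSeq (build GRCm38.p6), each running 5′ to 3′ on the strand of its gene from 250 bases before the start site. Capitals mark TCACNCCAC, a form of the sterol regulatory element bound by SREBPs, and CCAAT, the box bound by the cofactor NF-Y, on either strand. Other forms of the element were not searched for.
Mvd promoter, chr8:122443373-122443672, minus strand: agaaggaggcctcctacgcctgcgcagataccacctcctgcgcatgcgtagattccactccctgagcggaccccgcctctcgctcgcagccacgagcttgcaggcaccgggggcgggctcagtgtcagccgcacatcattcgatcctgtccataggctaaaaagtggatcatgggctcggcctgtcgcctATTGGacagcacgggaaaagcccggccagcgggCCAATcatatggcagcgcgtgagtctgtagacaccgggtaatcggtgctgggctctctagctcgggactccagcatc
Sc5d promoter, chr9:42264251-42264550, minus strand: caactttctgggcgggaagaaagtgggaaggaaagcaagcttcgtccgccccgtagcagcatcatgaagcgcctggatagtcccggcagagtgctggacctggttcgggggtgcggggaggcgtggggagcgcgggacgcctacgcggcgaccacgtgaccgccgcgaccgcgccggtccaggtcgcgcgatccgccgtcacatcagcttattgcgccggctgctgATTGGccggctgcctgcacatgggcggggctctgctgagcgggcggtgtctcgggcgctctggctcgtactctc
Hmgcs1 promoter, chr13:119690101-119690400, plus strand: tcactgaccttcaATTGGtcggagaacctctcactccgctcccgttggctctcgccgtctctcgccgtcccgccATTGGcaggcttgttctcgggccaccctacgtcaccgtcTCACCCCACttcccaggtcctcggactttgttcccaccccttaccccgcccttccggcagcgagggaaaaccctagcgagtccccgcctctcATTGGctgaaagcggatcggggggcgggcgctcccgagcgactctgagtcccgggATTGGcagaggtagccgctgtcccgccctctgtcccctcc
Elovl6 promoter, chr3:129532136-129532435, plus strand: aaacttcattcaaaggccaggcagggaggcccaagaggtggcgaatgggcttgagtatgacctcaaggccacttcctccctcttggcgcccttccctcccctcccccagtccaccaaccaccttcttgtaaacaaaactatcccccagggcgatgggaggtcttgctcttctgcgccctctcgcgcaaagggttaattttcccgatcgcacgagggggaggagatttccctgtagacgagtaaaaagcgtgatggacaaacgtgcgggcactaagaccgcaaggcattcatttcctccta
Fasn promoter, chr11:120824498-120824797, minus strand: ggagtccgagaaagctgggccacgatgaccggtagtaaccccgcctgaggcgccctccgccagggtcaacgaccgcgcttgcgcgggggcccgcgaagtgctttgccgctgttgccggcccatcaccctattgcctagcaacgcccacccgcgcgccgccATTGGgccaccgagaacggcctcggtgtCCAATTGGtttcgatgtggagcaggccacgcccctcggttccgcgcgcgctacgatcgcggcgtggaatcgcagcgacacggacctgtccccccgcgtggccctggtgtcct

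The RefSeq table held windows for 23 of the 29 members, 29 windows of 300 bases in all. Not among them were Fdps, Fdft1, Sqle, Stard4, Scd1 and Scd2. TCACNCCAC lay in 1 of the 29 member windows (3.45%), that of Hmgcs1, 137 bases before the start site, against 1.24% of 32851 windows of all genes. CCAAT was in 21 of 29 member windows (72.4%), against 37.4% of all windows. The GC box GGGCGG, bound by Sp1, was in 21 of 29 as well (72.4%), against 35.7%, and the E-box CACGTG in 4 of 29 (13.8%), against 7.15%. In the windows printed above, Mvd held 2 CCAAT boxes, Hmgcs1 4, Fasn 3 (of which 2 overlap on opposite strands), Sc5d 1 and Elovl6 0. CCAAT matches were thus present both in members that rose and in Sc5d, which did not pass the test, and the counts describe letters in short windows only.

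The sterol arm starts with Acat2, whose product joins acetyl-CoA units, and Hmgcs1, which makes HMG-CoA. Acat2 was at 38.5, 34.0 and 35.4 CPM in KO 1 to KO 3, against 23.1 and 24.9 CPM in WT 1 and WT 2. It rose 1.50-fold (log2 fold change 0.59 ± 0.11 SE, adjusted p = 0.00593, edgeR). Every knockout lay above both wild types, as in 25.9% of all tested genes. Hmgcs1 was at 219, 177 and 208 CPM in the knockouts, against 155 and 145 CPM in the wild types, and rose 1.34-fold (adjusted p = 0.0251, edgeR).

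The steps from mevalonate to farnesyl diphosphate held the highest fold changes of the sterol arm and also 1 of its flattest members. Mvd, the decarboxylase that yields isopentenyl diphosphate, was at 48.5, 42.5 and 46.2 CPM in the knockouts, against 24.5 and 28.4 CPM in the wild types. All 3 knockouts lay well above both wild types, and the change was 1.73-fold (log2 fold change 0.79 ± 0.12 SE, adjusted p = 0.00158, edgeR). Fdps, the synthase of farnesyl diphosphate, was at 118.5, 118.0 and 137 CPM in the knockouts and 70.3 and 81.8 CPM in the wild types, and rose 1.64-fold (adjusted p = 0.00233, edgeR). Pmvk, which phosphorylates mevalonate phosphate, rose 1.35-fold (adjusted p = 0.0417, edgeR). Mvk, the kinase before it, was 1.30-fold higher and missed the threshold (adjusted p = 0.0561, edgeR). It was at 37.7 to 46.6 CPM in knockouts, above the 30.2 and 35.0 CPM of wild types. Knockouts lay above both wild types in 25.9% of all tested genes. Idi1, the isomerase between Mvd and Fdps, was at 9.67, 8.42 and 12.5 CPM in the knockouts, against 10.3 and 9.69 CPM in the wild types, and its wild types lay within the range of the knockouts. Its log2 fold change of 0.020 had a 95% interval of -0.40 to 0.44 and turned to -0.021 with upper-quartile factors, and a rise of the size of Fdft1 or Hmgcs1 lies inside that interval.

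All 3 enzymes from farnesyl diphosphate to lanosterol rose, against 9.64% of all tested genes. Sqle, squalene epoxidase, a rate-limiting step of the later route, was at 136, 137 and 133 CPM in the knockouts, against 97.9 and 94.2 CPM in the wild types. The knockout values were nearly equal and none came near the wild types, for a 1.41-fold change (log2 fold change 0.49 ± 0.088 SE, adjusted p = 0.00460, edgeR). Knockouts lay above both wild types in 25.9% of all tested genes. Fdft1, squalene synthase, rose 1.34-fold and Lss, which closes the ring to lanosterol, rose 1.31-fold (adjusted p = 0.0190 and 0.0349, edgeR). Mvd, Fdps and Sqle were the sterol enzymes that stayed past the threshold in each of 14 alternative fits.

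Of the 7 enzymes that turn lanosterol into cholesterol, 1, Dhcr7, rose, against 9.64% of all tested genes. It encodes the reductase of the last steps and was at 59.0, 57.9 and 57.7 CPM in the knockouts, against 44.2 and 43.3 CPM in the wild types (1.33-fold, adjusted p = 0.0127, edgeR). Cyp51, Msmo1 and Nsdhl, which remove methyl groups from the ring, and the isomerase gene Ebp stood at log2 fold changes of 0.24 to 0.29, short of the threshold (adjusted p = 0.0730 to 0.165, edgeR). In each of these 4 genes the knockouts lay above both wild types, as they did in 25.9% of all tested genes. Sc5d, the desaturase before Dhcr7, was at 69.8, 61.4 and 98.2 CPM in KO 1 to KO 3, against 89.1 and 86.5 CPM in the wild types. KO 3 was thus the highest of the 5 libraries while KO 1 and KO 2 were the lowest, and no change passed (log2 fold change -0.20 ± 0.17 SE, adjusted p = 0.415, edgeR). Without KO 3, and with the replicate block, Sc5d was called as a fall, in fits whose group difference comes from the same libraries. Hsd17b7, a ketoreductase of the same stage, also had KO 3 highest and KO 1 and KO 2 lowest, with 24.9, 25.9 and 32.7 CPM in KO 1 to KO 3, against 29.5 and 27.1 CPM in the wild types (log2 fold change -0.033, adjusted p = 0.889, edgeR). Median log2 fold changes were 0.44 for the 7 enzymes up to Fdps, 0.42 for the 3 up to Lss and 0.26 for the 7 after it, a grouping made after the values were seen and not tested.

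**Figure D1:**
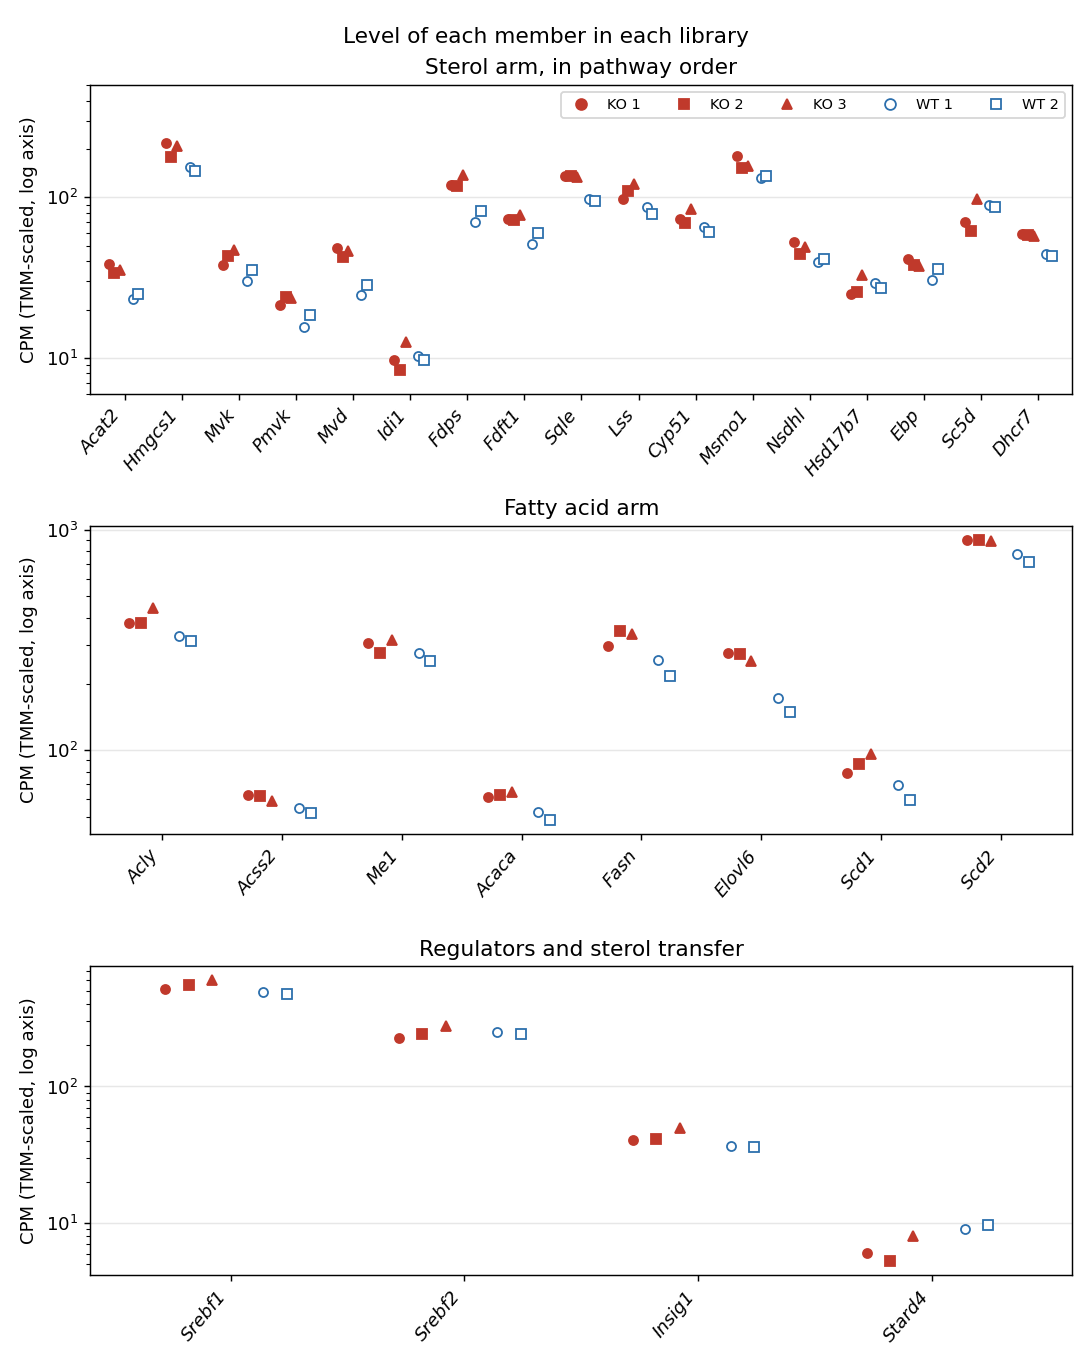
CPM (TMM-scaled, log axis) of each of the 29 genes in the 5 libraries, knockouts as filled red and wild types as open blue symbols, with a marker shape per replicate number. For Mvd the knockouts sit at 42.5 to 48.5 CPM and the wild types at 24.5 and 28.4 CPM, whereas for Idi1 and Sc5d the groups overlap.

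The fatty acid arm opens with genes that supply acetyl-CoA and NADPH. Of these, 0 passed in edgeR and 1, Acly, passed in DESeq2 and had an unadjusted p under 0.05. The shares passing over all tested genes were 19.7% in edgeR and 19.6% in DESeq2. Acly, ATP citrate lyase, was at 377, 379.7 and 445 CPM in the knockouts, against 331 and 314 CPM in the wild types (1.24-fold, adjusted p = 0.0720, edgeR). Acss2, which makes acetyl-CoA from acetate, was 1.14-fold higher (adjusted p = 0.166, edgeR). Me1, the malic enzyme that yields NADPH, was at 308, 276 and 316 CPM in the knockouts and 277 and 254 CPM in the wild types (adjusted p = 0.260, edgeR). Me1 was the single gene of the arm whose groups overlapped, by KO 2 and WT 1. Over all tested genes, 25.9% had every knockout above both wild types.

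Acaca, Fasn and Elovl6, genes of synthesis and elongation, rose, against 9.64% of all tested genes. The log2 fold change of Acaca (0.32) was close to that of the supply gene Acly (0.31), and the split by step was not tested. Acaca, the carboxylase that makes malonyl-CoA, was at 61.4, 62.5 and 64.7 CPM in the knockouts, against 52.6 and 48.2 CPM in the wild types, and rose 1.25-fold (adjusted p = 0.0417, edgeR). Fasn, fatty acid synthase, was at 296, 349 and 338 CPM in the knockouts, against 258 and 217 CPM in the wild types, and rose 1.38-fold (log2 fold change 0.47 ± 0.12 SE, adjusted p = 0.0208, edgeR). In both genes the knockouts lay above both wild types, as in 25.9% of all tested genes. Elovl6, the elongase that takes palmitate to stearate, had the highest fold change of the arm and the smallest p of all 29 members. It was at 277, 275 and 254 CPM in the knockouts, against 174 and 149 CPM in the wild types, a 1.67-fold rise (log2 fold change 0.74 ± 0.11 SE, adjusted p = 0.00145, edgeR). By p it stood at rank 357 of the 14779 genes, near Mvd at 385 and Fdps at 470.

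Stearoyl-CoA desaturases put the first double bond into the chain. Scd1 was at 79.0, 86.7 and 96.5 CPM in the knockouts, against 69.6 and 59.7 CPM in the wild types, and rose 1.35-fold (adjusted p = 0.0266, edgeR). Its neighbour and close paralog Scd2 was at 905, 904 and 897 CPM in the knockouts, against 782 and 717 CPM in the wild types. Scd2 did not pass (1.20-fold, 95% interval of the log2 fold change 0.030 to 0.50, adjusted p = 0.104, edgeR). Its knockouts lay above both wild types, as in 25.9% of all tested genes. Per kilobase of exon, Scd2 was the most abundant of the 29 transcripts in both genotypes, with 165 CPM per kilobase in knockouts and 137 in wild types. Scd1 had 17.9 and 13.2 CPM per kilobase in knockouts and wild types on that scale. Among the sterol enzymes the highest level on that scale was that of Hmgcs1, with 43.8 CPM per kilobase in knockouts and 32.7 in wild types. Stard4 was the lowest of the 29, with 1.15 and 1.68 CPM per kilobase in knockouts and wild types.

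**Figure D2:**
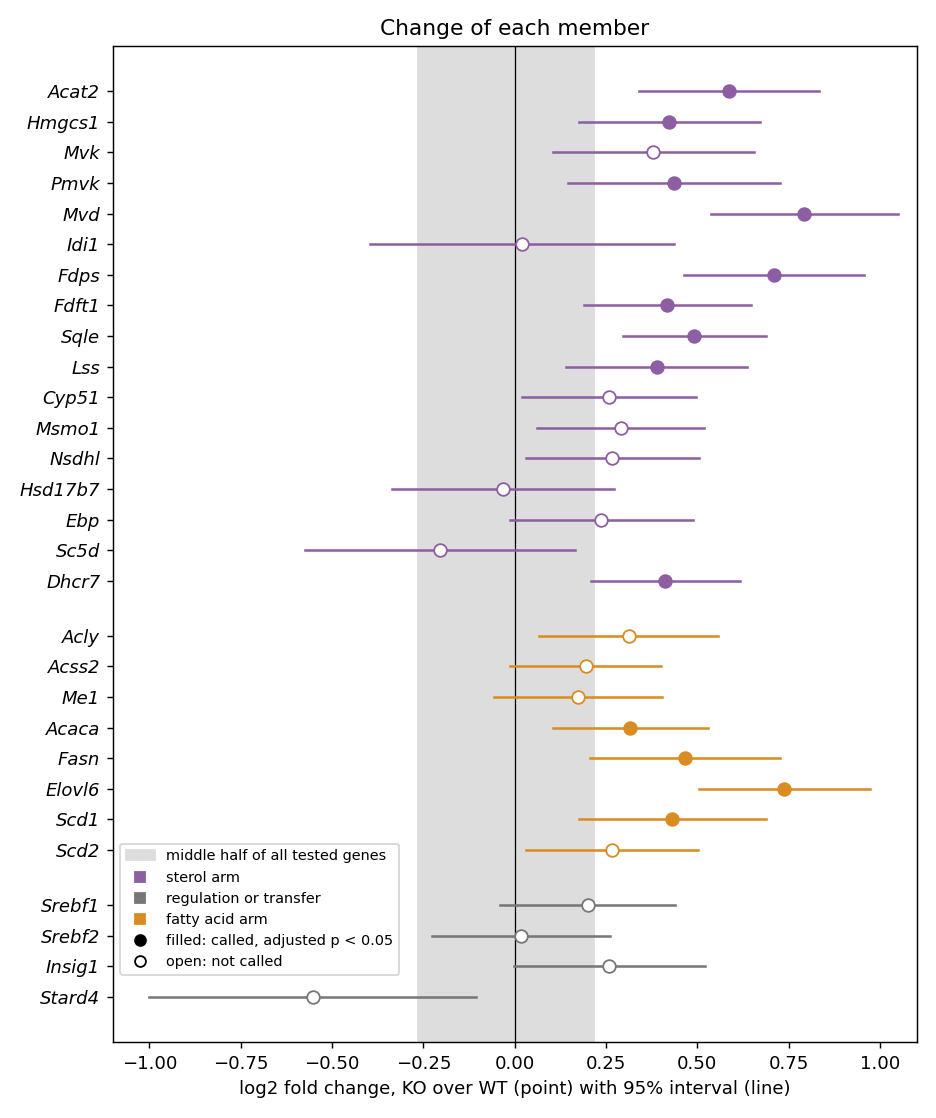
Log2 fold change of each gene, knockout over wild type, with its 95% interval from the edgeR fit, filled where the adjusted p is under 0.05, with the quartiles of all tested genes (-0.27 and 0.22) as a grey band. The 13 filled points all lie to the right of the band, from Acaca at 0.32 to Mvd at 0.79, and Stard4 lies furthest left at -0.55.

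The arms were then set side by side by library. The mean log2 CPM of the 17 sterol enzymes was 5.87, 5.80 and 5.97 in KO 1 to KO 3, against 5.51 and 5.57 in WT 1 and WT 2. That of the 8 fatty acid enzymes was 7.65, 7.68 and 7.72 in the knockouts, against 7.40 and 7.24 in the wild types. In either arm every knockout lay above both wild types. The knockout minus wild-type difference was 0.34 for the sterol arm and 0.36 for the fatty acid arm, on the log2 scale. Sterol minus fatty acid within a library averaged -1.80 ± 0.066 in knockouts (SD, n = 3) and -1.78 ± 0.14 in wild types (SD, n = 2), and these ranges overlapped. The difference between the arms' median log2 fold changes, sterol minus fatty acid, was 0.074 and took either sign under other settings, from -0.058 without WT 1 to 0.11 without WT 2. No test was run on these scores because the genes were chosen with earlier results of these data known. Summed over the arm, sterol enzymes took 1213 to 1356 CPM in knockouts, against 994 and 1007 CPM in wild types, and fatty acid enzymes 2366 to 2470 CPM in knockouts, against 1811 and 1998 CPM in wild types.

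**Figure D3:**
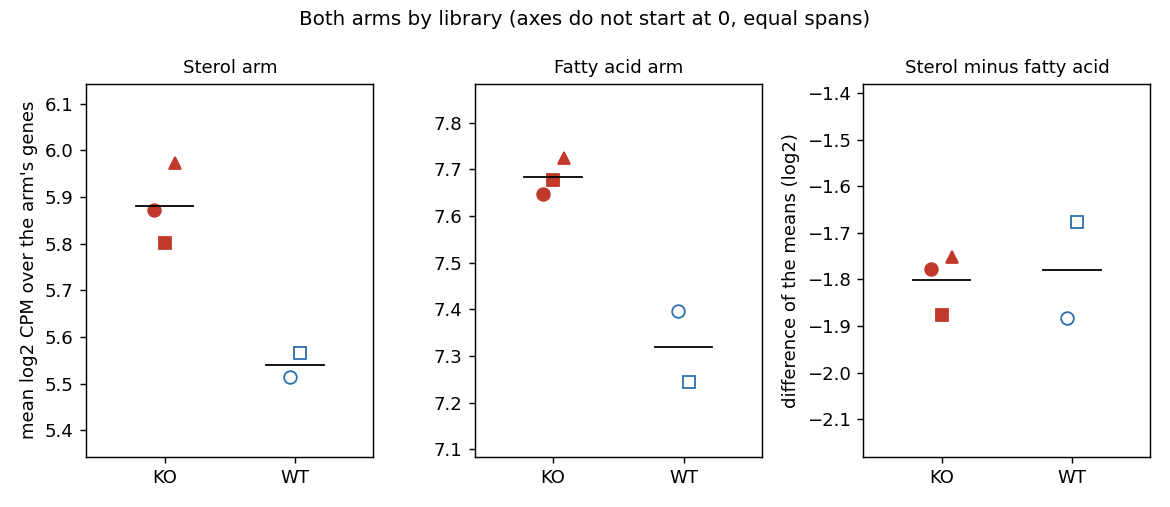
Mean log2 CPM over the 17 sterol enzymes (left), over the 8 fatty acid enzymes (middle) and their difference (right), 1 symbol per library and a line at each group mean, on axes of equal span that do not start at 0. Knockouts lie above wild types in both arms, while the difference averages -1.80 in knockouts and -1.78 in wild types.

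Fewer members passed when a library was left out. Called sterol enzymes numbered 3 without WT 1 and 5 without WT 2, and called fatty acid enzymes 1 without WT 1, 1 without WT 2 and 1 without KO 2. The share of all genes called was 4.79% without WT 1, 9.40% without WT 2 and 13.0% without KO 2. All 13 genes that rose in the full set kept a positive log2 fold change in each of the 14 alternative fits. Mvd, Fdps, Sqle and Elovl6 were called in all 14. Calls of the other 9 were lost in at least 1 of them, those of Pmvk and Acaca in 8, and that of Lss in 6. Members whose knockout values all lay above both wild types numbered 23 of 29, and 1, Stard4, lay below, against 25.9% and 25.1% of all tested genes.

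Of the 4 regulators and carriers, 0 passed in edgeR and 0 in DESeq2, and 1, Stard4, had an unadjusted p under 0.05. Over all tested genes, 19.7% passed in edgeR and 19.6% in DESeq2. Srebf2 was at 224, 244 and 277 CPM in the knockouts, against 250.2 and 241 CPM in the wild types (log2 fold change 0.017, 95% interval -0.23 to 0.26, adjusted p = 0.930, edgeR). Its groups overlapped and the sign of the change differed between scalings, at -0.024 with upper-quartile factors. Srebf1 was at 513, 555 and 597 CPM in the knockouts, against 494 and 472 CPM in the wild types. All 3 knockouts were higher, as in 25.9% of all tested genes, without passing (1.15-fold, adjusted p = 0.215, edgeR). These counts sum all transcripts of Srebf1, so its SREBP-1a and SREBP-1c forms are not separated, and transcript counts give nothing on cleavage of either protein. Insig1, itself a known SREBP target, was at 40.5, 41.0 and 49.6 CPM in the knockouts, against 36.7 and 36.1 CPM in the wild types (1.20-fold, adjusted p = 0.146, edgeR). Stard4, whose product carries sterol between membranes, was at 6.02, 5.29 and 8.02 CPM in the knockouts, against 9.14 and 9.62 CPM in the wild types. All 3 knockouts were below both wild types, as in 25.1% of all tested genes. The log2 fold change of -0.55 ± 0.20 SE did not pass (adjusted p = 0.0796, edgeR). It passed as a fall in 3 of the 14 alternative fits: with no filter on low counts (adjusted p = 0.0416, edgeR), with the replicate block (adjusted p = 0.00263, edgeR) and without KO 3 (log2 fold change -0.73, adjusted p = 0.00941, edgeR).

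Further genes of the pathway came from lists drawn up beside the members. Among other enzymes of the sterol route, Ggps1, which draws farnesyl diphosphate off towards geranylgeranyl diphosphate, fell (34.4, 30.0 and 36.1 CPM in knockouts, against 44.1 and 41.8 CPM in wild types, adjusted p = 0.0450, edgeR). Lbr had a log2 fold change of -0.10 (adjusted p = 0.503, edgeR). The 6 genes of that list, not all reported here, had a median log2 fold change of 0.075.

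Genes that process or assist SREBPs gave 0 calls among 10 in edgeR (9.64% of all genes rose and 10.0% fell), with a median log2 fold change of 0.042. Scap was 1.19-fold higher and Sp1, a promoter factor that works beside SREBPs, had a log2 fold change of -0.30 (adjusted p = 0.0950 and 0.0616, edgeR). Nfya, an NF-Y subunit, and the E3 ligase gene Rnf139 had log2 fold changes of 0.13 and -0.097 (adjusted p = 0.445 and 0.539, edgeR). Scap and Sp1 were the 2 with an unadjusted p under 0.05, and in DESeq2 with Benjamini-Hochberg adjustment 1 of the 10 passed, Sp1 (adjusted p = 0.0442).

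Among 15 genes of sterol uptake, sensing and export, 1 rose and 1 fell, against 9.64% rising and 10.0% falling over all tested genes. Vldlr, a lipoprotein receptor, was at 93.5, 94.3 and 99.1 CPM in knockouts, against 75.6 and 66.2 CPM in wild types (1.35-fold, adjusted p = 0.0135, edgeR). Scarb1, the HDL receptor, fell by 0.35 on the log2 scale (adjusted p = 0.0485, edgeR). The exporter genes Abca1 and Abcg1, known targets of the sterol sensor LXR, stood at log2 fold changes of -0.38 and 0.34, short of the threshold (adjusted p = 0.0708 and 0.0864, edgeR).

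Of 23 tested genes of further fatty acid metabolism, 3 rose and 2 fell, against 9.64% rising and 10.0% falling over all tested genes. Aacs, which activates acetoacetate for lipid synthesis in the cytosol, was at 89.2, 95.9 and 101 CPM in knockouts, against 48.1 and 48.7 CPM in wild types. Its 1.97-fold rise (log2 fold change 0.98 ± 0.097 SE, adjusted p = 0.000217, edgeR) exceeded that of any of the 29 members. Slc25a1, the mitochondrial citrate carrier that feeds Acly, rose 1.27-fold (adjusted p = 0.0270, edgeR). Acacb, the carboxylase isoform tied to control of oxidation, fell by 0.64 on the log2 scale (adjusted p = 0.0290, edgeR), and Fads3, of the desaturase family, fell by 0.53 (adjusted p = 0.0176, edgeR). Acaca and Acacb, 2 isoforms of the same enzyme, therefore changed in opposite directions.

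NADPH is used by both arms. G6pdx and Pgd, the NADPH-yielding enzymes of the pentose phosphate route, rose 1.34-fold and 1.28-fold, and the folate enzyme gene Mthfd1 rose 1.32-fold (adjusted p = 0.0133, 0.0407 and 0.0496, edgeR). Idh1 had a log2 fold change of -0.099 and did not pass (adjusted p = 0.538, edgeR), and 3 of 6 genes in this list rose, against 9.64% of all tested genes. Fatty acid oxidation genes, 17 of them tested, had a median log2 fold change of -0.018. Cpt1c fell by 0.75 on the log2 scale, Acaa2 rose 1.33-fold and Ehhadh had a log2 fold change of -0.44 without passing (adjusted p = 0.0122, 0.0175 and 0.0664, edgeR).

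**Figure D4:**
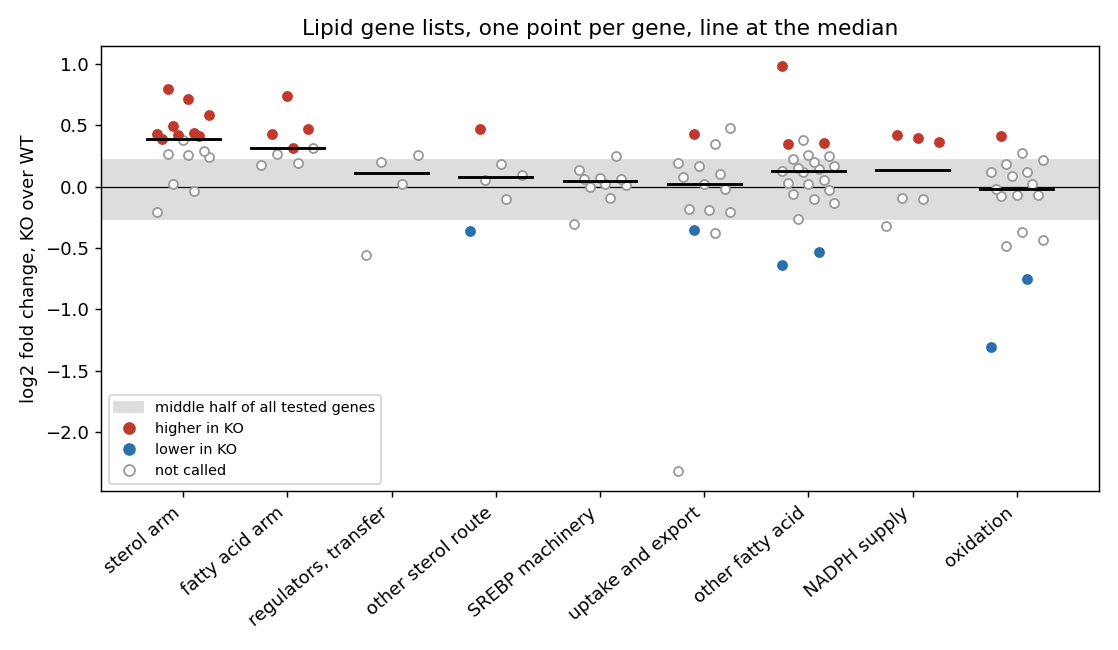
Log2 fold change, knockout over wild type, of every tested gene in 9 lists of lipid metabolism, 1 point per gene, red where it rose, blue where it fell and open grey where it did not pass, with a line at each median and the quartiles of all tested genes as a grey band. The medians of the sterol arm (0.39) and fatty acid arm (0.31) lie above the band, and those of the other 7 lists lie inside it.

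Some counts may hold reads of other genes, or miss reads that fit more than 1 gene. The 18.3% of Fdft1 exon bases that lie under Ctsb on the opposite strand (GENCODE vM21, GRCm38) cannot be assigned without strand, and Ctsb was at 549, 575 and 463 CPM in knockouts, against 449 and 456 CPM in wild types (adjusted p = 0.201, edgeR). Hmgcs1 shares 12.1% of its exon bases with the antisense entry Gm48342. Fdps shares 26.7% of its exon bases with the overlapping entry Gm43738, which is not used here. Ctsb and the paralogs below were named for their position or likeness, with their values seen. Close paralogs of members had few counts: 2 to 14 per library for Acat3, 0 to 1 for Idi2, 10 to 21 for Scd3 and 9 to 42 for Scd4. Reads that fit both Scd1 and Scd2 cannot be traced in these counts. Mvd lies on chromosome 8 from 122433601 to 122443422, Fdps on chromosome 3 from 89093588 to 89101959, Sqle on chromosome 15 from 59315077 to 59331192 and Elovl6 on chromosome 3 from 129532355 to 129638495 (GRCm38).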

How the data were processed

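RNA-seq was made from dissected urothelium in 5 libraries, 3 of knockouts and 2 of wild types, with TRI-Reagent and the TruSeq RNA kit, per the labels' protocols. The authors deposited raw counts per gene symbol for each library. The tools HTSeq 0.11.1, HISAT2 2.1.0 and DESeq2 and the build mm10 are named, without roles, per the submitters' processing notes. The sources used here give neither annotation nor strand setting. The 5 summary entries that name no gene were left out of library sizes.

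Counts were tested over all genes with edgeR 4.0.16 (R 4.3.3, limma 3.58.1), using filterByExpr defaults, TMM scaling, the quasi-likelihood F-test and Benjamini-Hochberg adjustment at 0.05. Of 24970 genes, 14779 were tested and 2907 called, with 12608836 to 27188499 gene counts per library. Alternatives were other size factors, filters and a robust fit, DESeq2 1.42.0, limma-voom, a replicate block and leaving out each library. Log2 CPM used a prior count of 2. The code was tested on simulated data. Replicates differed by more than counting noise (chi-square per degree of freedom 9.61 to 38.0). Library totals set the counting error, and the intervals given are those of the fit.

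Members and gene lists were chosen with earlier results of these data known. Named were all 29 members and, of each further list, the 4 tested genes with the smallest p; others were named after their values were seen. Some genes that this rule names are not reported here. Promoters were matched by symbol to RefSeq windows and searched on both strands. Gene positions are from GENCODE vM21.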

Additional observations from a re-analysis of the deposited data

How the results depend on the processing

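Calls depended mainly on which libraries entered. Leaving out each library gave 715 to 3989 called genes (2907 in all 5 libraries), 3 to 8 called sterol enzymes (9 in all) and 1 to 3 called fatty acid enzymes (4 in all), each lowest without WT 1. Without KO 3, 1 of the 8 sterol calls was a fall, of Sc5d, and Stard4 was called as a fall. The sterol minus fatty acid difference of medians was -0.058 to 0.11 when a library was left out (0.074 in all) and -0.036 without the mevalonate steps; the cause was not tested. The median log2 fold change of either arm stayed positive in all 14 fits.

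With the replicate block, 4637 genes were called, among them 12 sterol enzymes (11 rose, and Sc5d fell) and 4 fatty acid enzymes, and Stard4 fell, as it did with no filter on low counts. The labels share replicate numbers only, and the KO 1 minus KO 2 and WT 1 minus WT 2 differences correlated at 0.0025 across 14779 genes, so the numbers were not taken as pairs.

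Signs turned for 3 members, Idi1, Srebf2 and Hsd17b7, that were called in none of the 14 fits. Idi1 (0.020) was at -0.021 with upper-quartile factors, -0.027 with the 5 CPM filter, -0.018 with limma-voom and -0.14 with the replicate block. Srebf2 (0.017) was at -0.024, -0.029 and -0.069 with upper-quartile factors, the 5 CPM filter and the replicate block. With a library left out, Idi1 ranged from -0.15 to 0.12, Srebf2 from -0.085 to 0.085 and Hsd17b7 (-0.033) from -0.18 to 0.044. The intervals of Stard4 and Idi1, the members with the fewest counts, were the widest, followed by that of Sc5d; the part of depth in this was not tested. With 2 wild types, the spread of that group rests on 1 difference.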
